A study of Mus musculus with 14 samples.

Results

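Cytochrome P450 family 2 was followed in livers of mice with and without spontaneous autoimmune hepatitis (AIH). The family was taken as every protein-coding gene whose symbol begins with Cyp2, followed by a subfamily letter and a number, in the GENCODE annotation of the mouse genome build GRCm38. This rule found 49 genes among the 51912 gene rows of the count files. The 15 members of the Cyp2c subfamily lie on chromosome 19, the 8 of Cyp2d on chromosome 15 and the 8 of Cyp2j on chromosome 4. A further 15 members lie on chromosome 7, among them all 4 of Cyp2a and all 5 of Cyp2b, with Cyp2e1, Cyp2f2, Cyp2g1, Cyp2r1, Cyp2s1 and Cyp2t4. Cyp2ab1, Cyp2u1 and Cyp2w1 stand alone on chromosomes 16, 3 and 5.

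Total RNA of the left liver lobe was sequenced from 14 untreated mice aged 20 weeks, each library being taken as 1 mouse. The 4 controls were healthy littermates of genotype Tet2fl/fl cre-, in which the floxed Tet2 gene stays intact. The 5 asymptomatic and the 5 AIH mice were both Tet2fl/fl vav cre+, and differed by whether hepatitis was present. Vav drives Cre in blood-forming cells, so hepatocytes, which make most of the RNA of this family, are not the cells in which Tet2 is meant to be deleted. All 3 groups carry the floxed allele.

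Family 2 enzymes are heme proteins of the endoplasmic reticulum. They insert an oxygen atom into drugs, toxins, steroids and fatty acids, using electrons from NADPH through cytochrome P450 reductase. Hepatocytes are the main site of most of them. Several are known for zonation along the liver lobule, Cyp2e1 around the central vein and Cyp2f2 around the portal vein, and others for large differences between male and female mice that follow the pattern of growth hormone release. Inflammation is known to lower many hepatic P450 transcripts.

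The family holds close copies, and 3 pairs show how alike the flanking DNA of genes with alike or unlike expression can be. Upstream stretches of 200 bases outside annotated exons were taken from RefSeq, in which 41 of the 49 members matched an entry, and are given 5′ to 3′ on the strand of the gene in GRCm38, with the bases that differ within a pair in capitals. The first pair are Cyp2a4 and Cyp2a5, enzymes that hydroxylate testosterone and coumarin respectively, of which Cyp2a4 separated female from male controls and Cyp2a5 did not. The other pairs are Cyp2b9 with Cyp2b13 and Cyp2c40 with Cyp2c69, and the members of each of these were high in the same livers.
Cyp2a4 (chr7:26306959-26307158, plus strand): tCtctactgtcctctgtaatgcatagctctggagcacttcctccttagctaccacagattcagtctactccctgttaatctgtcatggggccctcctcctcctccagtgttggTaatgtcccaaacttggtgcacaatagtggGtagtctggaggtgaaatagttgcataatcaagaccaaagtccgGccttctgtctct
Cyp2a5 (chr7:26835105-26835304, plus strand): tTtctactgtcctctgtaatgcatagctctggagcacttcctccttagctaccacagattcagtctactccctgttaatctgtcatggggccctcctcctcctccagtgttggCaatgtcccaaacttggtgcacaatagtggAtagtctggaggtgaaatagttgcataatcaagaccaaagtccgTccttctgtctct
Cyp2b9 (chr7:26173209-26173408, plus strand): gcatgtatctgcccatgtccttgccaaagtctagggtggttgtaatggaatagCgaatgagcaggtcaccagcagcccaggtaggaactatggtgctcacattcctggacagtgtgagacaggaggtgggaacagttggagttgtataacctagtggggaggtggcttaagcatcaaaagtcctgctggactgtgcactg
Cyp2b13 (chr7:26061295-26061494, plus strand): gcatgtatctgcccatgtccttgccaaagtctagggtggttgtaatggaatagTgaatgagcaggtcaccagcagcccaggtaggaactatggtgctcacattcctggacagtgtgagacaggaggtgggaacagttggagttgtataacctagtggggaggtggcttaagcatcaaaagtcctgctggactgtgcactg
Cyp2c40 (chr19:39812815-39813014, minus strand): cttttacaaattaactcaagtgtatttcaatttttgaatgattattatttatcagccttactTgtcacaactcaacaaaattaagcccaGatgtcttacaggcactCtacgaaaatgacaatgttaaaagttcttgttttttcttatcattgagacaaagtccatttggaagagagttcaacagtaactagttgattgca
Cyp2c69 (chr19:39886800-39886999, minus strand): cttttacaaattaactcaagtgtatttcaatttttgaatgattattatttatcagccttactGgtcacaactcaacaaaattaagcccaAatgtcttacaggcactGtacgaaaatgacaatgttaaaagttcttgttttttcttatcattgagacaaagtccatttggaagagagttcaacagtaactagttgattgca

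Counted from 1 at the 5′ end of each stretch, with the base of the first gene of the pair first, Cyp2a4 and Cyp2a5 differ at 4 positions (C2T, T114C, G144A and G188T). Cyp2b9 and Cyp2b13 differ at 1 position (C54T). Cyp2c40 and Cyp2c69 differ at 3 positions (T63G, G90A and C107G). Identity over the 200 bases is 98.0%, 99.5% and 98.5% in these 3 pairs. For comparison, Cyp2b9 and the drug-inducible Cyp2b10 share 72.8% of 217 aligned columns, 16 of which are gaps.

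The Cyp2a4 and Cyp2a5 pair and the Cyp2c40 and Cyp2c69 pair also carry the letters CAAAGTCC, a core bound by the hepatocyte factor HNF4A and its relatives. Both strands of the 300 bases around the start of each gene (250 before and 50 after) were searched. CAAAGTCC stands in 9 of 41 members (22.0%), namely Cyp2a4, Cyp2a5, Cyp2c40, Cyp2c65, Cyp2c66, Cyp2c67, Cyp2c68, Cyp2c69 and Cyp2c70, and in 1.63% of 27025 genes. TTGCATAA, a form of the D-box bound by DBP, a factor under control of the circadian clock, stands in Cyp2a4, Cyp2a5, Cyp2b10, Cyp2b19 and Cyp2b23 (12.2% of members, against 0.888% of genes). The other D-box form searched, TTANNTAA, stands in 12.2% of members and 6.93% of genes. The STAT5 motif TTCNNNGAA stands in 4.88% of members and 9.55% of genes. Members that arose by duplication share their upstream sequence, so these are not independent occurrences.

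Gene totals ran from 15968380 to 18915729 counts per library. Sex is not in the labels and was read from Xist and 4 Y-linked transcripts: controls 2 and 3 were female and controls 1 and 4 male, all 5 asymptomatic mice were male, and AIH 1, 2, 3 and 5 were female with AIH 4 male. Group and sex are therefore entangled, and the comparisons of members below are also given within a sex where that could be done. Tet2 lay at 8.53 to 11.98 CPM (counts scaled to a common library total) in controls, 4.77 to 9.24 in asymptomatic livers and 7.34 to 15.4 in AIH livers, a weak check, since few cells of the liver are blood cells. All 16 matched hepatocyte identity genes were detected, with summed levels of 140600 to 198600 CPM in controls, 154600 to 185600 in asymptomatic livers and 119000 to 238600 in AIH livers. The 18 leukocyte genes summed to 203 to 428 CPM in controls, 235 to 305 in asymptomatic livers and 1097 to 2770 in AIH livers. The 12 stellate cell and matrix genes summed to 375 to 541, 290 to 600 and 774 to 1540 CPM. In whole tissue, fewer hepatocytes and less RNA per hepatocyte cannot be told apart, and the part of these other cells in the differences below was not tested.

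Of the 49 members, 37 had enough counts to be tested. Per kilobase of exon, Cyp2e1, which oxidizes ethanol and acetaminophen, stood first in controls at 3986 ± 191 CPM per kb (SD, n = 4). Cyp2d26 followed at 493 ± 102 CPM per kb. After it came Cyp2c29, an epoxygenase of arachidonic acid, at 405 ± 99.5 CPM per kb, and Cyp2c37, another arachidonic acid hydroxylase, at 352 ± 209. Cyp2f2, which activates naphthalene, held 339 ± 82.5 CPM per kb and Cyp2j5, an epoxygenase of fatty acids, 320 ± 47.2. The gap between Cyp2e1 and Cyp2d26 exceeded the spread of both many times over, whereas Cyp2d26, Cyp2c29, Cyp2c37, Cyp2f2 and Cyp2j5 followed one another at distances smaller than their standard deviations. Cyp2e1 alone made 39.8% to 55.1% of all family CPM in controls, 38.1% to 53.3% in asymptomatic livers and 31.4% to 43.1% in AIH livers.

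Summed over all members, the family held 15420 to 22860 CPM in controls, 16630 to 19160 in asymptomatic livers and 10300 to 13270 in AIH livers. The AIH livers lay below all others. Without Cyp2e1 the sums were 6915 to 13760, 8381 to 10720 and 5866 to 8460 CPM, and AIH and control livers overlapped.

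**Figure D1:**
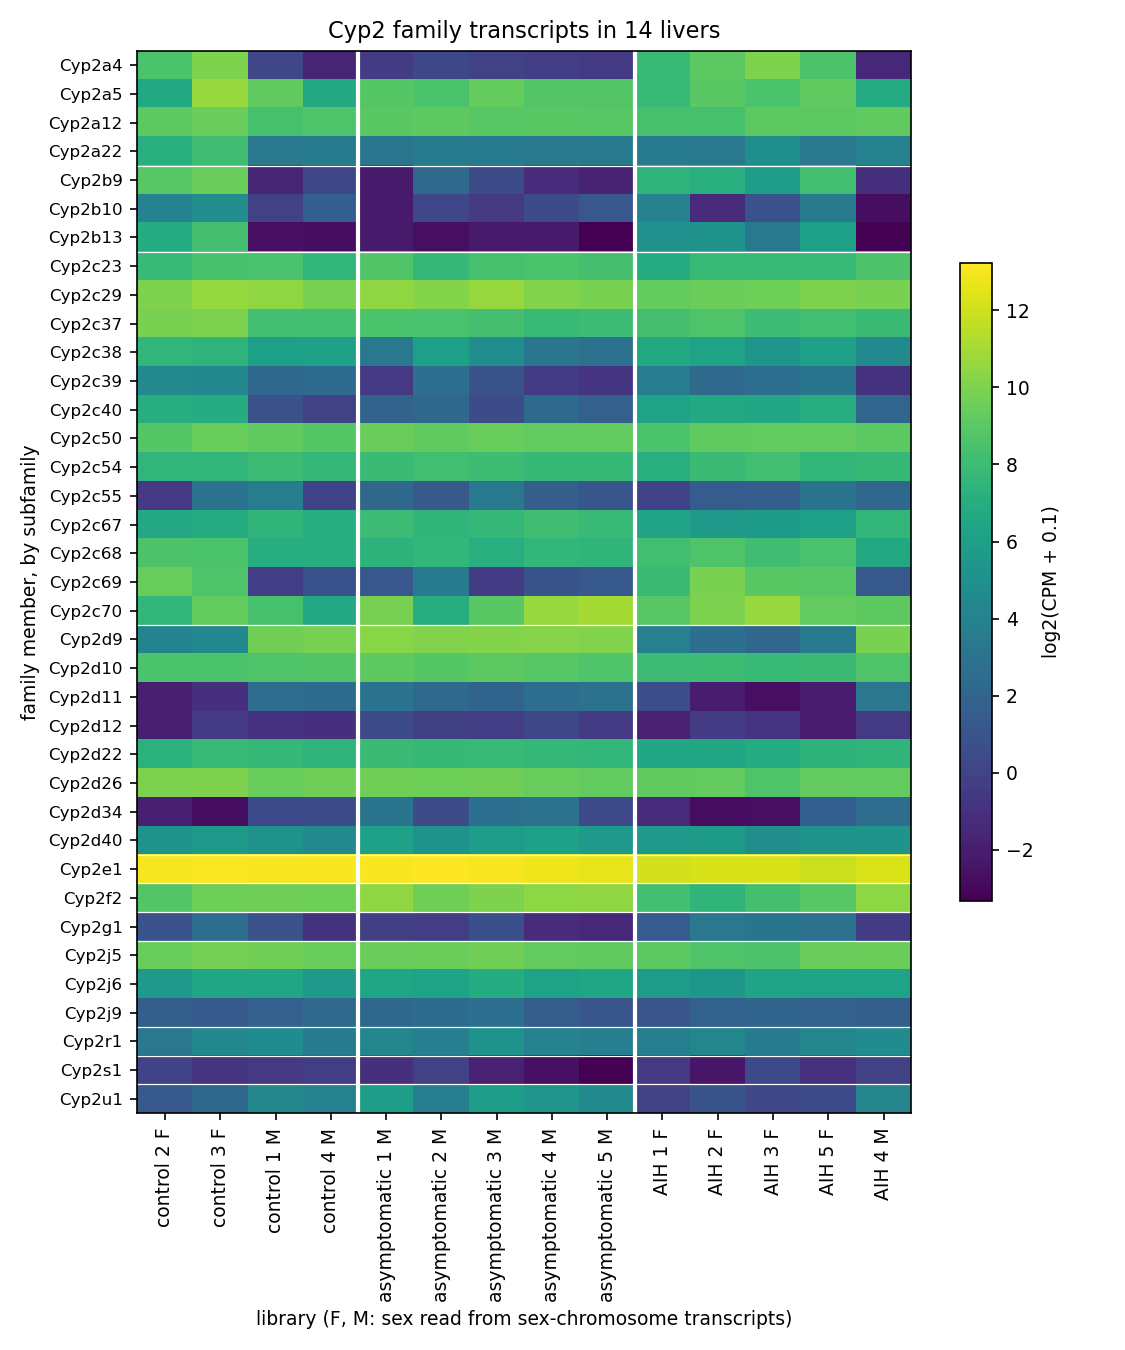
Level of the 37 tested members (rows, ordered by subfamily) in each of the 14 livers (columns, grouped as control, asymptomatic and AIH, females first), as log2(CPM + 0.1) on the colour scale. Cyp2e1 is the brightest row in every liver, and Cyp2a4, Cyp2b9, Cyp2b13, Cyp2c40 and Cyp2c69 are bright in female and dark in male livers.

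Sex was looked at first, within the controls. Female controls were compared with male controls (2 against 2, with the spread taken from all 14 livers) by edgeR's quasi-likelihood test, with Benjamini-Hochberg adjustment over 14638 genes and a threshold of 0.05. In that test 9 of the 37 members passed (24.3%, against 0.465% of all genes tested), 8 of them higher in females (0.253% of all genes) and Cyp2d9 lower (0.212%). Without control 1 or without control 4 the count was 5 in each case. These 5 were Cyp2a4, Cyp2a22, Cyp2b13, Cyp2c40 and Cyp2d9 each time. Over all genes, 36 of 14973 passed without control 1 and 43 of 14986 without control 4, beside 68 of 14638 with all livers.

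Cyp2a4 stood at 374.6 and 1053 CPM in the female controls and at 1.05 and 0.223 in the males. Its log2 fold change was 10.12 ± 0.95 (SE, adjusted p = 7.4e-05), a pooled ratio of 1146 (95% counting interval 757 to 1829). Cyp2a5, which has nearly the same upstream sequence, stood at 105.2 and 1604 CPM in the females and 574.4 and 99.3 in the males. The sexes overlapped for Cyp2a5 (log2 fold change 1.34 ± 0.92, adjusted p = 1). Fragments of 50 bases are unique to their gene for 61.2% of Cyp2a4 and 63.0% of Cyp2a5 positions, so part of the reads of these 2 genes could have been discarded or shared.

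Cyp2b13 held 123.9 and 326.1 CPM in female controls and 0.0584 and 0.0559, or 1 count each, in males (log2 fold change 11.77 ± 1.11, adjusted p = 7.4e-05). The pooled ratio was 3971, with a 95% counting interval of 1099 to 32800 that reflects the 2 counts in males. Cyp2b9 held 483.9 and 688.6 CPM in females and 0.234 and 1.06 in males (9.80 ± 1.58, adjusted p = 0.01). Both are female-predominant members of the phenobarbital-responsive Cyp2b subfamily. Cyp2b10, the member known best for induction through the receptor CAR (Nr1i3), held 15.8 and 27.0 CPM in females and 0.877 and 3.02 in males, with a log2 fold change of 3.45 ± 1.34 that missed the threshold (adjusted p = 0.82).

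Cyp2c69 stood at 651.9 and 414.3 CPM in females and 0.701 and 1.68 in males (log2 fold change 8.80 ± 1.27, adjusted p = 0.0045). Cyp2c40 stood at 126.3 and 119.5 CPM in females and 1.64 and 0.838 in males (6.63 ± 0.56, adjusted p = 2.8e-05). The neighbouring Cyp2c68 differed less, with 395.3 and 366.0 CPM against 128.4 and 124.0 (1.59 ± 0.24, adjusted p = 0.0059). Only 39.7% of Cyp2c40, 45.7% of Cyp2c69, 47.2% of Cyp2c67 and 56.7% of Cyp2c68 positions give unique 50-base fragments, and the values of these 4 are uncertain for that reason.

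Cyp2a22 held 133.9 and 283.4 CPM in females and 9.59 and 10.6 in males (log2 fold change 4.37 ± 0.54, adjusted p = 0.0012). Cyp2c37 held 960.5 and 983.2 CPM in females and 312.8 in each male (1.64 ± 0.26, adjusted p = 0.01). Cyp2d9, a male-predominant steroid hydroxylase, went the other way with 17.8 and 20.8 CPM in females and 781.5 and 928.6 in males (-5.47 ± 0.49, adjusted p = 4.7e-05). In every one of these 9 members the female and male controls did not overlap, and the same held for 22 of the 37 members (59.5%) beside 36.7% of all genes tested.

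**Figure D2:**
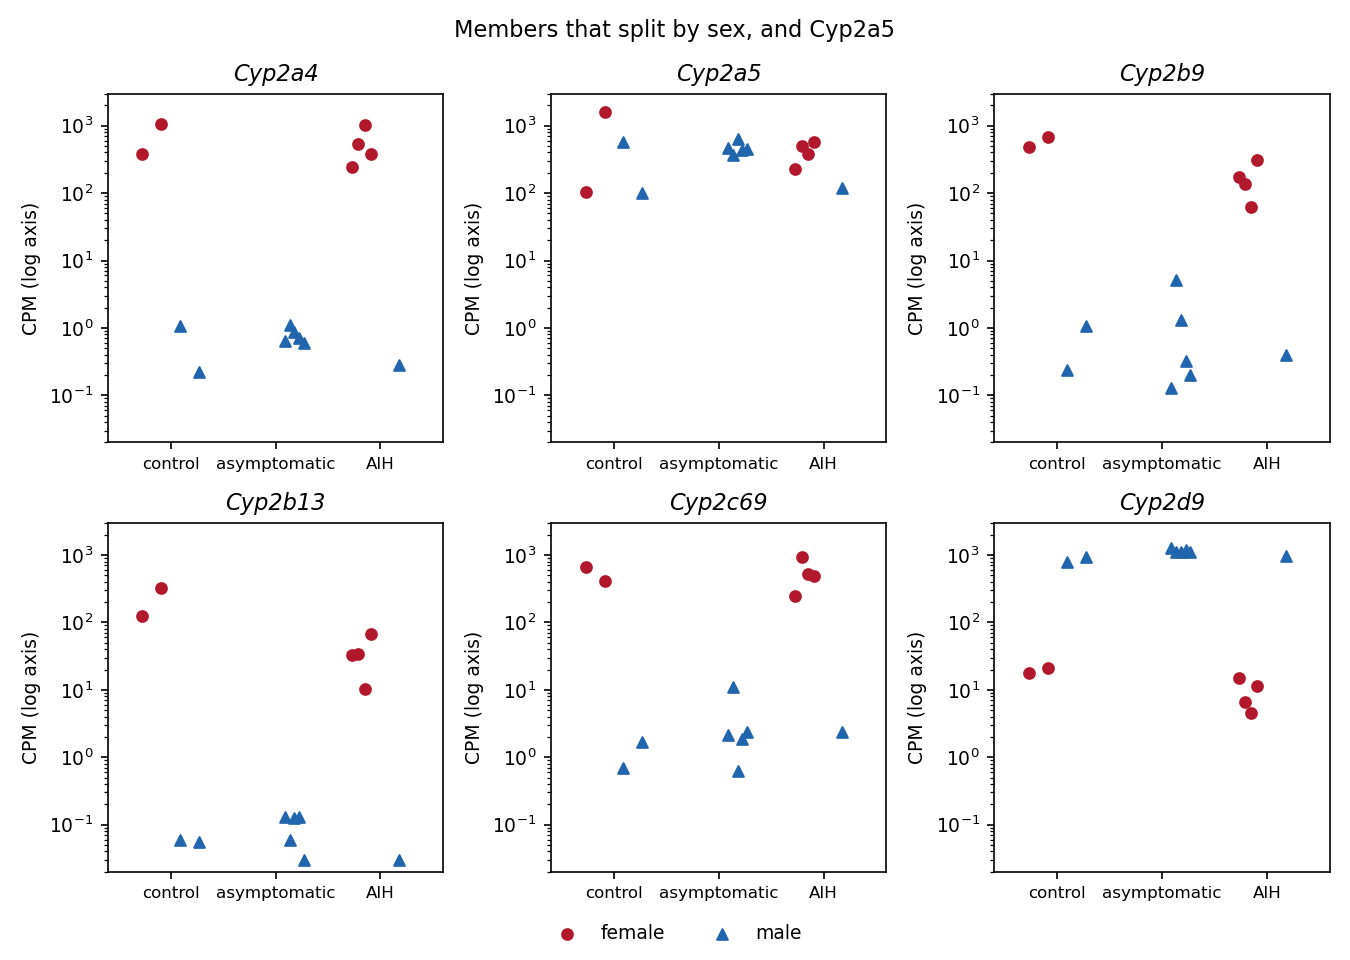
Level in each liver (CPM, log axis) of Cyp2a4, Cyp2a5, Cyp2b9, Cyp2b13, Cyp2c69 and Cyp2d9 by group, with circles for females and triangles for males; livers with no count of Cyp2b13 (asymptomatic 5 and AIH 4) are drawn at the bottom of the axis. Apart from Cyp2a5, the sexes separate in all groups that hold both.

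AIH livers were then compared with control livers to describe the family in hepatitis. Cyp2e1, Cyp2d26, Cyp2c37 and Cyp2a22 fell, and no member rose. That is 10.8% of the 37 members lower, against 6.08% of all genes, and 0 higher, against 15.6% of all genes (21.7% of genes passed in either direction). The median log2 fold change of the members was -0.459, with 26 below 0 and 11 above, beside -0.0134 for all genes. Left out in turn, control 3 took the count to 1, Cyp2e1, and AIH 4, the male, took it to 9. Over all genes, 761 of 14951 were lower without control 3 and 1126 of 14508 without AIH 4, beside 890 of 14638 with all livers. With sex as a term, 5 members fell (13.5%, against 4.1% of all genes), the same 4 with Cyp2b13.

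Cyp2e1 (ENSMUSG00000025479, chromosome 7, 140763739 to 140774987, plus strand) held 8678, 8116, 9109 and 8500 CPM in controls 1 to 4. In AIH livers 1 to 5 it held 4435, 4881, 4806, 4904 and 3813 CPM. The highest AIH liver lay well below the lowest control, and the male AIH liver, the highest of its group, was close to the highest female one. The log2 fold change was -0.91 ± 0.16 (adjusted p = 0.00093), which is 1.88-fold lower. Sex made no visible difference to Cyp2e1 in controls, where the female to male pooled ratio was 1.004 (95% counting interval 0.999 to 1.009).

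Cyp2d26 (ENSMUSG00000022445, chromosome 15, 82790101 to 82794294, minus strand) held 666.9, 1003, 1062 and 801.4 CPM in controls. In AIH livers it held 579.6, 609.5, 408.4, 595.1 and 608.6 CPM. These groups did not overlap either, and AIH 3 was the lowest liver of all. The log2 fold change was -0.66 ± 0.18 (adjusted p = 0.018). Cyp2e1 and Cyp2d26 are the members whose groups did not overlap, 5.41% of the 37, beside 6.61% of all genes that were lower without overlap.

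Cyp2c37 (ENSMUSG00000042248, chromosome 19, 39992424 to 40012243, plus strand) held 312.8, 960.5, 983.2 and 312.8 CPM in controls. In AIH livers it held 318.1, 400.7, 265.1, 246.8 and 303.5 CPM. The AIH livers lay on both sides of the 2 male controls, and far below the 2 female ones. The log2 fold change was -1.07 ± 0.33 (adjusted p = 0.031), and it passed in 9 of 19 alternative settings.

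Cyp2a22 (ENSMUSG00000091867, chromosome 7, 26931631 to 26939384, minus strand) had the same shape, with 9.59, 133.9, 283.4 and 10.6 CPM in controls. In AIH livers it held 11.6, 10.01, 29.6, 15.6 and 9.65 CPM. The 2 female controls stood above every other liver, and the male controls within the range of the AIH livers or just under it. The log2 fold change was -2.84 ± 0.76 (adjusted p = 0.015). Without control 3 it no longer passed.

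**Figure D3:**
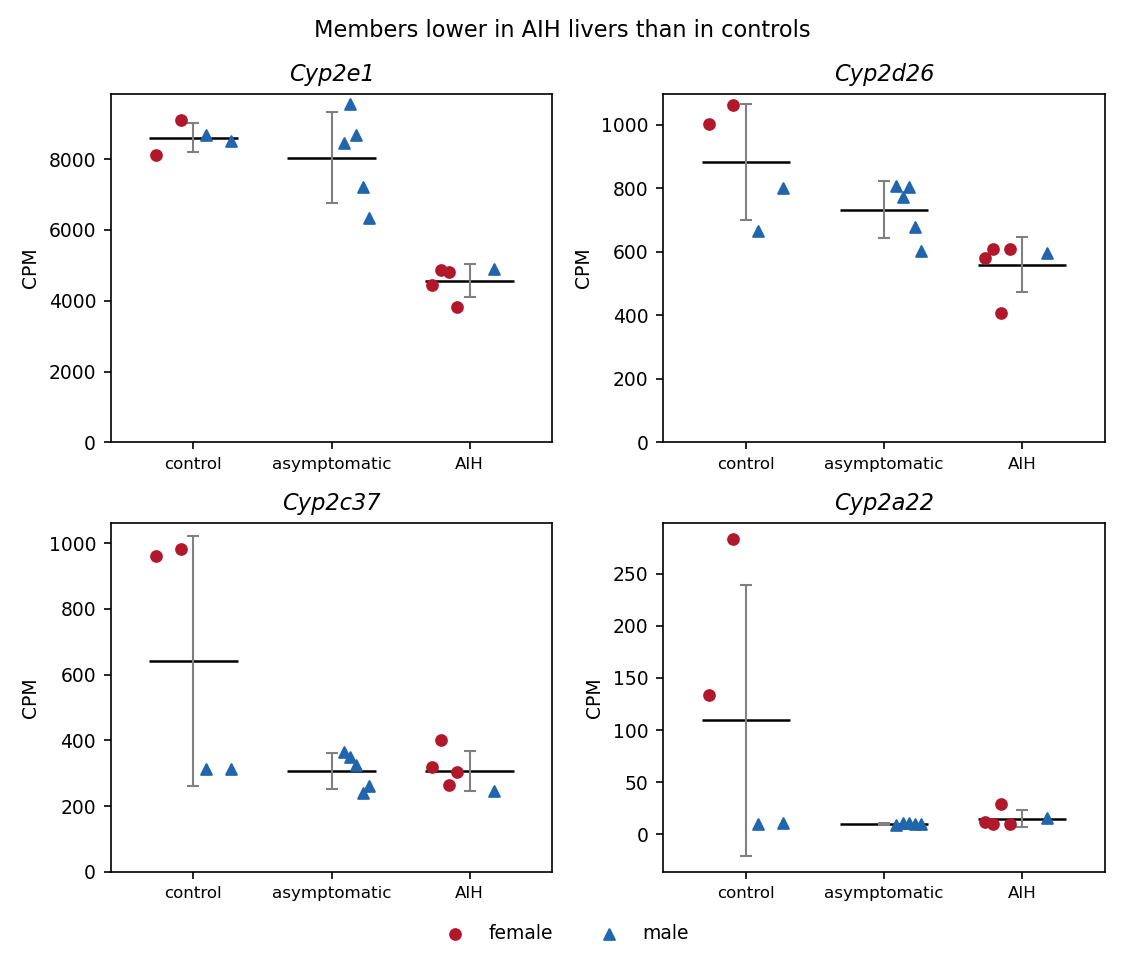
Level in each liver (CPM, linear axis) of Cyp2e1, Cyp2d26, Cyp2c37 and Cyp2a22 by group, with circles for females, triangles for males, a line at the group mean and a bar of 1 SD. For Cyp2e1 all AIH livers lie between 3813 and 4904 CPM, below every control and asymptomatic liver, whereas for Cyp2c37 and Cyp2a22 the 2 female controls stand apart from the rest.

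Among females alone (4 AIH against 2 controls), 6 members fell and none rose, 16.2% of the members against 2.51% of all genes that were lower and 9.42% that were higher. These were the same 4 with Cyp2b13 and Cyp2c67. Of the 37 members, 29 were below 0 with a median log2 fold change of -0.485, beside -0.00155 for all genes. In 14 members all AIH females lay below both control females (37.8%, against 15.6% of all genes), and in none did all lie above (20% of all genes). In the male AIH liver against the 2 male controls no member passed, beside 3.05% of all genes, and the median of the members was -0.0282. In edgeR's test of a different change in females and males, chosen after the data were seen, 0 of 14638 genes passed (0%). At an unadjusted p under 0.05, 404 genes differed in that test, 6 of them members. DESeq2 and limma-voom were not run on it.

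Cyp2e1 was lower in females by -0.94 ± 0.21 on the log2 scale (adjusted p = 0.012). In males the value was -0.81 ± 0.31 (adjusted p = 0.28), from 4904 CPM in the AIH male beside 8678 and 8500 in control males. Cyp2d26 was lower in females by -0.90 ± 0.21 (adjusted p = 0.015), and stood at -0.30 ± 0.31 in males (adjusted p = 0.82). Cyp2a22 was lower in females by -3.78 ± 0.40 (adjusted p = 0.00081), and stood at 0.63 ± 0.58 in males (adjusted p = 0.8).

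The 8 members that were higher in female than in male controls did not all move alike in AIH females, although both comparisons share the 2 female controls. In AIH females Cyp2a22 held 9.65 to 29.6 CPM and Cyp2c37 265.1 to 400.7, both near the levels of male controls (9.59 and 10.6, and 312.8 in each). Cyp2c37 fell by 1.59 ± 0.21 on the log2 scale in females (adjusted p = 0.0013). Cyp2b13 held 33.0, 34.4, 10.3 and 66.4 CPM in AIH 1, 2, 3 and 5, below both female controls and far above all males, whose highest value was 0.13. Its log2 fold change in females was -2.64 ± 0.51 (adjusted p = 0.0066). Cyp2b9 held 175.8, 134.3, 62.5 and 306.3 CPM in those livers, again below both female controls, with -1.79 ± 0.87 (adjusted p = 0.21).

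In the other 4 female-biased members, the range of the AIH females overlapped that of the female controls, though for Cyp2c68 no AIH female lay inside it. Cyp2a4 held 242.3, 528.9, 1019 and 386.1 CPM in AIH females (-0.39 ± 0.53, adjusted p = 0.69). Cyp2c69 held 245.4, 934.6, 517.9 and 480.0 CPM (0.03 ± 0.77, adjusted p = 0.99). Cyp2c40 held 77.9, 104.9, 96.9 and 125.5 CPM, beside 119.5 and 126.3 in female controls (-0.28 ± 0.36, adjusted p = 0.67). Cyp2c68 held 302.7, 401.4, 284.9 and 349.9 CPM, beside 366.0 and 395.3 in female controls (-0.19 ± 0.20, adjusted p = 0.6). Cyp2c67 did not pass in female against male controls. It held 82.2, 50.4, 51.8 and 67.9 CPM in AIH females and 100.3 and 122.2 in control females (-0.82 ± 0.25, adjusted p = 0.048).

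The male-predominant Cyp2d9 held 14.7, 6.61, 4.49 and 11.4 CPM in AIH females, below both female controls. Its log2 fold change in females was -1.05 ± 0.34 (adjusted p = 0.065). In the AIH male it held 950.9 CPM, beside 781.5 and 928.6 in male controls. Over all livers, which mix the sexes in unequal numbers, the value was -1.15 ± 1.43 (adjusted p = 0.61).

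**Figure D4:**
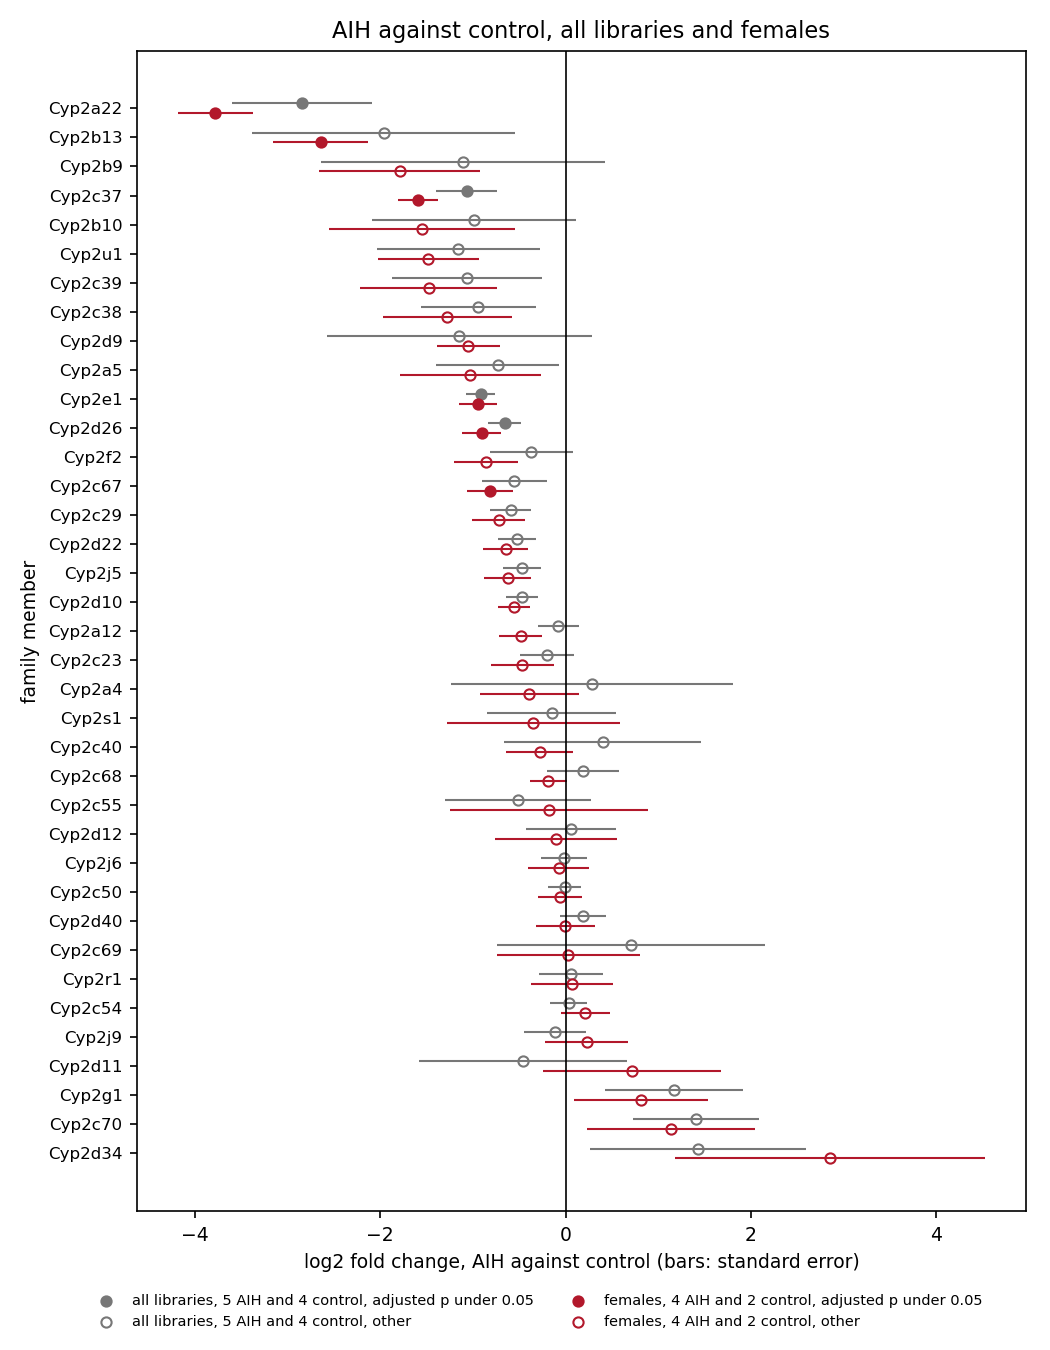
Log2 fold change of each tested member in AIH against control livers (horizontal axis, bars of 1 SE), in grey over all livers and in red among females, with filled points where the adjusted p was under 0.05. Most red points lie to the left of 0, and the filled ones are Cyp2a22, Cyp2b13, Cyp2c37, Cyp2e1, Cyp2d26 and Cyp2c67.

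Of the remaining members followed by rule, none passed in AIH against control. Cyp2c29 held 1448, 1056, 1542 and 909.0 CPM in controls and 628.1, 715.0, 764.0, 952.7 and 1046 in AIH livers, with some overlap (-0.59 ± 0.22, adjusted p = 0.067). Cyp2f2, the periportal member, held 795.7, 438.0, 750.1 and 763.9 CPM in controls and 311.2, 184.5, 322.5, 1350 and 493.3 in AIH livers. The AIH male was the highest of these 9 livers for Cyp2f2 and 3 of the 4 AIH females were below every control (-0.37 ± 0.45, adjusted p = 0.6). Cyp2a5 (-0.73 ± 0.66, adjusted p = 0.47) and Cyp2b10 (-0.99 ± 1.10, adjusted p = 0.57) varied more within groups than between them. Cyp2b10 held 15.7, 0.292, 1.69, 0.056 and 11.6 CPM in the AIH livers. Cyp2a4 stood at 0.28 ± 1.52 (adjusted p = 0.92) and Cyp2b9 at -1.11 ± 1.53 (adjusted p = 0.65) over all livers, with large standard errors.

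Asymptomatic livers, all male, were compared with all controls to ask what Tet2 deletion without hepatitis goes with. By edgeR 0 members passed, and 0 of 14638 genes (0%). At an unadjusted p under 0.05, 16 members and 1542 genes differed. With DESeq2 7 members passed, all lower, among 109 genes. These were Cyp2a4, Cyp2a22, Cyp2b9, Cyp2b13, Cyp2c38, Cyp2c40 and Cyp2c69, each higher in female than in male controls without overlap. With limma-voom 8 passed, 5 higher and 3 lower, among 1299 genes. The 4 members with the smallest p were Cyp2b13, Cyp2a22, Cyp2a4 and Cyp2b9, all of them higher in female controls. Cyp2b13 held 0.13, 0.0588, 0.126, 0.129 and 0 CPM in asymptomatic livers (-10.20 ± 2.28, adjusted p = 0.31). Cyp2a22 held 8.78, 11.5, 11.1, 9.69 and 10.1 CPM (-3.42 ± 0.78, adjusted p = 0.31). Cyp2a4 held 0.65, 1.118, 0.879, 0.711 and 0.599 CPM (-8.80 ± 2.07, adjusted p = 0.31). For all 3 the male controls stood near the asymptomatic livers and the female controls far above. Cyp2b9 held 0.13, 5.06, 1.32, 0.323 and 0.2 CPM (-7.68 ± 1.998, adjusted p = 0.31), high for its group in asymptomatic 2.

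Against the 2 male controls these 4 members stood much closer, at 0.02 ± 0.41 for Cyp2a22, 0.32 ± 0.72 for Cyp2a4, 0.58 ± 1.65 for Cyp2b13 and 1.13 ± 1.19 for Cyp2b9, with adjusted p-values of 0.99, 0.93, 0.95 and 0.86. Within males 0 members and 0 of 14638 genes passed, and 7 members and 803 genes had an unadjusted p under 0.05. Cyp2e1 held 8445, 9564, 8673, 7205 and 6336 CPM in asymptomatic livers, a range that takes in the controls (-0.10 ± 0.16, adjusted p = 0.86). Cyp2c29 (0.03 ± 0.22), Cyp2a5 (-0.34 ± 0.66), Cyp2b10 (-3.47 ± 1.22) and Cyp2d9 (1.40 ± 1.48) did not pass.

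In 3 members all asymptomatic livers lay above all controls (8.11% of 37, beside 1.27% of all genes). The asymptomatic livers are all male, and these 3 members were also higher in male than in female controls without overlap. Cyp2f2 held 1440, 807.2, 1028, 1361 and 1399 CPM (0.81 ± 0.46, adjusted p = 0.55). Cyp2c67 held 255.1, 184.4, 211.5, 287.3 and 230.1 CPM, against 100.3 to 182.5 in controls (0.82 ± 0.36, adjusted p = 0.45). Cyp2d9 held 1261, 1113, 1120, 1172 and 1094 CPM, against 781.5 and 928.6 in the male controls. Asymptomatic 2 was the closest to the controls for Cyp2f2 and Cyp2c67. Within males the values were 0.63 ± 0.35 for Cyp2f2, 0.61 ± 0.25 for Cyp2c67 and 0.43 ± 0.34 for Cyp2d9, each with an adjusted p of 0.83.

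The remaining comparison, of AIH with asymptomatic livers, is between groups of the same genotype. It sets 4 females and 1 male against 5 males. Of the 37 members 12 passed (32.4%, against 29.8% of all genes), 6 higher (16.2%, against 19.1%) and 6 lower (16.2%, against 10.7%). The 6 higher were Cyp2a4, Cyp2b9, Cyp2b13, Cyp2c40, Cyp2c69 and Cyp2g1, of which the first 5 are those that separated female from male controls most. With sex as a term in the fit, 2 members passed, both lower (5.41%, against 1.02% of all genes). These were Cyp2e1 (-0.77 ± 0.21, adjusted p = 0.032) and Cyp2c68 (-0.69 ± 0.20, adjusted p = 0.043). The mean level of Cyp2c68 was nonetheless higher in AIH livers, 289.2 against 176.0 CPM, so its lower call rests on the sex term. Cyp2c68 held 284.9 to 401.4 CPM in AIH females, 107.3 in the AIH male and 137.8 to 199.9 in asymptomatic livers. Within males, where AIH is 1 liver, 0 passed, beside 5.55% of all genes.

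In the 5 female-biased members among those that were higher, the male AIH liver lay with or near the asymptomatic males. Cyp2a4 averaged 435.2 ± 380.1 CPM in AIH livers (SD, n = 5) and 0.791 ± 0.211 in asymptomatic ones, a log2 fold change of 9.09 ± 2.08 (adjusted p = 0.0047), and the AIH male held 0.28 CPM. Cyp2b13 stood at 8.23 ± 2.20 (adjusted p = 0.012) and was not detected in the AIH male. Cyp2b9 stood at 6.57 ± 1.89 (adjusted p = 0.018), with 0.392 CPM in that liver. Cyp2c69 (6.92 ± 1.76, adjusted p = 0.0089) and Cyp2c40 (4.50 ± 1.17, adjusted p = 0.01) had 2.41 and 4.03 CPM there, beside 0.628 to 10.9 and 1.318 to 5.11 in asymptomatic livers. With limma-voom none of these 5 passed. In that fit 14 of the 37 members did, 3 higher and 11 lower, among 5515 of 14638 genes (3229 higher and 2286 lower). For these 5 members, hepatitis and sex cannot be told apart in this comparison.

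Cyp2g1, known best from olfactory tissue, was low throughout. It held 2.59, 9.82, 8.39, 0.671 and 7.53 CPM in AIH livers and 0.266 to 1.57 in asymptomatic ones (2.98 ± 0.76, adjusted p = 0.0094). Female controls held 1.75 and 6.26 CPM and male controls 1.81 and 0.447. The AIH male again lay with the other males.

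Among the 6 lower members, Cyp2e1 held 4904 CPM in the AIH male, beside at least 6336 in asymptomatic livers (-0.82 ± 0.15 over all livers, adjusted p = 0.001). Cyp2d10 held 558.4, 460.3, 538.9, 487.9 and 415.3 CPM in asymptomatic and 254.2, 265.7, 242.1, 410.6 and 251.3 in AIH livers (-0.79 ± 0.17, adjusted p = 0.0027). Cyp2d22 held 243.4, 215.1, 235.9, 205.4 and 196.9 CPM in asymptomatic and 96.3, 94.9, 123.8, 177.4 and 166.1 in AIH livers (-0.74 ± 0.19, adjusted p = 0.011). In both, the AIH male was the highest AIH liver and the groups did not overlap, as in Cyp2e1 and Cyp2d9 (10.8% of members, beside 4.65% of all genes lower).

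Cyp2u1, a fatty acid hydroxylase, held 60.4, 13.5, 58.7, 38.7 and 22.9 CPM in asymptomatic livers. In AIH livers it held 0.816, 1.85, 1.05, 18.5 and 1.21 CPM, high in the male alone (-3.06 ± 0.88, adjusted p = 0.017). Cyp2c67 fell by 1.37 ± 0.34 on the log2 scale (adjusted p = 0.0072) and Cyp2c29 by 0.62 ± 0.21 (adjusted p = 0.037). With sex as a term, Cyp2u1 stood at -1.63 ± 0.54 (adjusted p = 0.078) and Cyp2c67 at -0.71 ± 0.30 (adjusted p = 0.17). Cyp2f2 (-1.18 ± 0.43, adjusted p = 0.0501), Cyp2d9 (-2.54 ± 1.43, adjusted p = 0.19), Cyp2a5 (-0.39 ± 0.63, adjusted p = 0.67) and Cyp2b10 (2.48 ± 1.16, adjusted p = 0.12) did not pass over all livers.

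The genes that serve or control these enzymes were counted in AIH against control. Of all 14638 genes tested, 6.08% fell and 15.6% rose over all livers, and 2.51% fell and 9.42% rose within females. The counts of the lists from here on stand beside these shares. Of 21 regulators of P450 transcription, 5 fell and none rose (median -0.471). Ppara, the fatty acid receptor, held 161.9 to 244.0 CPM in controls and 20.6 to 100.8 in AIH livers (-1.51 ± 0.33, adjusted p = 0.005). Nr1i3, the receptor CAR that drives Cyp2b10, held 93.6, 257.1, 352.3 and 156.9 CPM in controls and 131.3, 118.7, 46.8, 31.8 and 102.5 in AIH livers (-1.32 ± 0.42, adjusted p = 0.035). The clock-controlled factor Hlf fell by 0.96 ± 0.24, the bile acid receptor Nr1h4 by 0.57 ± 0.17 and Rxra, the partner receptor of Nr1h4, by 0.53 ± 0.15 on the log2 scale. Within females 3 of the 21 fell, namely Nr1i3, Ppara and Foxa1. The median of the 21 was -0.426 within females, and -0.488 in the male AIH liver against male controls.

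Of 18 genes of electron transfer and heme supply, 1 rose and 3 fell. Hmox1, which breaks heme down, rose (log2 fold change 2.19 ± 0.47, adjusted p = 0.0044). It is also made by macrophages, and leukocyte genes were higher in the same livers, as given above. Cpox (-1.10 ± 0.30, adjusted p = 0.017) and Fech (-0.58 ± 0.16, adjusted p = 0.018), which complete heme synthesis, fell, as did the heme-binding P450 partner Pgrmc1 (-0.55 ± 0.16, adjusted p = 0.025). Within females, Hmox1 was the only gene of this list to pass.

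Among growth hormone and sex-dependent regulators, Igfals and Cux2 fell within females. Cux2, a female-specific repressor of male genes, held 51.4 and 62.2 CPM in female controls, 28.7, 25.4, 11.8 and 11.9 in AIH females, and 0.188 to 0.78 in males (-1.55 ± 0.39 in females, adjusted p = 0.024). Of 19 other female-biased liver genes 6 fell within females and none rose. Those with the smallest p were Cyp3a41a, Cyp3a16, Hao2 and again Cux2. Of 16 other male-biased genes 2 rose and 3 fell.

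By zone of the lobule, 3 of 20 other pericentral genes fell in AIH against control (Oat, Aldh1a1 and Rnf43) and none rose. Of 20 other periportal genes Fbp1 fell and Ctsc, a protease that leukocytes also express, rose. Within females 0 of the 20 pericentral and 0 of the 20 periportal genes passed, with medians of -0.48 and -0.37. Of 35 tested P450 genes of other families 3 rose and 3 fell, among them Cyp3a25 (-1.19 ± 0.24, adjusted p = 0.0027) and Cyp4f18 (3.09 ± 0.64, adjusted p = 0.0035), the latter known from leukocytes. Within females 2 of these 35 rose and 6 fell (median -0.83). Within general hepatocyte identity genes, 1 of 16 rose (Hpx, which is also an acute phase gene) and 1 fell (Rbp4). Of 19 acute phase and inflammatory genes 11 rose. Of 10 cholangiocyte genes Spp1 rose, and of 10 sinusoidal endothelial genes Pecam1 and Cdh5 rose. Within females Hpx, 9 of the acute phase genes, none of the cholangiocyte genes and Pecam1 rose, and none of these 4 lists had a gene that fell. In the male AIH liver against male controls, the medians were -0.247 for pericentral, -0.358 for periportal and -0.239 for other P450 genes. The medians there were 0.207 for hepatocyte identity, 0.51 for acute phase, 0.491 for cholangiocyte and 0.243 for endothelial genes.

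The 12 members not tested were nearly or wholly silent. Cyp2j7, Cyp2j12, Cyp2j13 and Cyp2w1 had no count in any library. Cyp2c66, Cyp2j11 and Cyp2t4 had 1 count, Cyp2c65 had 2 and Cyp2j8 had 7. Cyp2b19, known from skin, had 99 counts, all in control 3. Cyp2b23 had 34 counts in controls, all in the 2 females, which is at least 11.01-fold higher than in the males (floor of 3 counts over the group). It had 37 in AIH livers, all in females, and 1 in asymptomatic livers. Cyp2ab1 had 2 counts in controls, 3 in asymptomatic livers and 26 in AIH livers. The AIH to control ratio of Cyp2ab1 was 9.60 with a 95% counting interval of 2.40 to 83.5, which covers counting error only.

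Some members differed as much within a group as between groups, in step with other measures of the same libraries. Cyp2a5 stood at 574.4 and 1604 CPM in controls 1 and 3 and at 105.2 and 99.3 in controls 2 and 4. The log2 ratio of Dbp to Arntl, transcripts of the circadian clock that peak at opposite times of day, was 7.47 and 6.76 in controls 1 and 3 and -4.45 and -2.84 in controls 2 and 4. AIH 4, with a ratio of -1.85, held 117.1 CPM of Cyp2a5, and the other AIH livers, with ratios of 2.61 to 5.69, held 227.4 to 572.9. In asymptomatic livers the ratio was 1.41 to 6.03 and Cyp2a5 371.9 to 630.1 CPM. Cyp2c55 (12.98 and 7.84 against 0.565 and 0.894 CPM), Cyp2c70, which makes muricholic acids (346.9 and 642.9 against 195.3 and 100.3), and Cyp2r1, which starts the activation of vitamin D (26.4 and 20.7 against 9.33 and 11.8), also separated controls 1 and 3 from controls 2 and 4. AIH 4 was not low in these 3, with 4.59 CPM of Cyp2c55, 555.8 of Cyp2c70 and 25.6 of Cyp2r1. Other members split the controls in the same way, among them Cyp2c23, Cyp2c29, Cyp2c50, Cyp2d22, Cyp2j5 and Cyp2j6 (89.2 and 87.6 against 48.8 and 47.2 CPM). So did Cyp2e1, by a small margin (8678 and 9109 against 8116 and 8500 CPM). The share of all genes with this split was not counted, so it is not shown to be particular to these members. The part of time of day in these values was not tested.

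Asymptomatic 2 differed from its group in several members and in its share of unaligned reads, 4.93% against 7.80% to 9.27% in asymptomatic 1, 3, 4 and 5. That share was 4.17% to 4.89% in controls and 3.23% to 3.77% in AIH females, below every asymptomatic liver. The unaligned share is therefore entangled with group in both comparisons with asymptomatic livers. Cyp2c38 held 67.7 CPM in asymptomatic 2, beside 64.5 and 69.4 in male controls, and 7.25 to 27.7 in the other 4. Cyp2c39 held 6.35 CPM there and 0.466 to 1.76 in the other 4. Cyp2u1 was at 13.5 CPM there and 22.9 to 60.4 in the others, and Cyp2c70 at 127.7 against 499.3 to 2077. The AIH male, with 6.54% unaligned, held 23.95 CPM of Cyp2c38 and 0.448 of Cyp2c39, below all AIH females (40.3 to 108.1 and 5.15 to 12.7). Both members were also higher in female than in male controls (170.5 and 189.5 against 64.5 and 69.4 CPM for Cyp2c38, 20.8 and 24.6 against 4.50 and 5.36 for Cyp2c39). Asymptomatic 2 had the lowest Dbp to Arntl ratio of its group as well, 1.41 against 4.66 to 6.03. The part of the unaligned share, sex or the clock in these values was not tested.

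**Figure D5:**
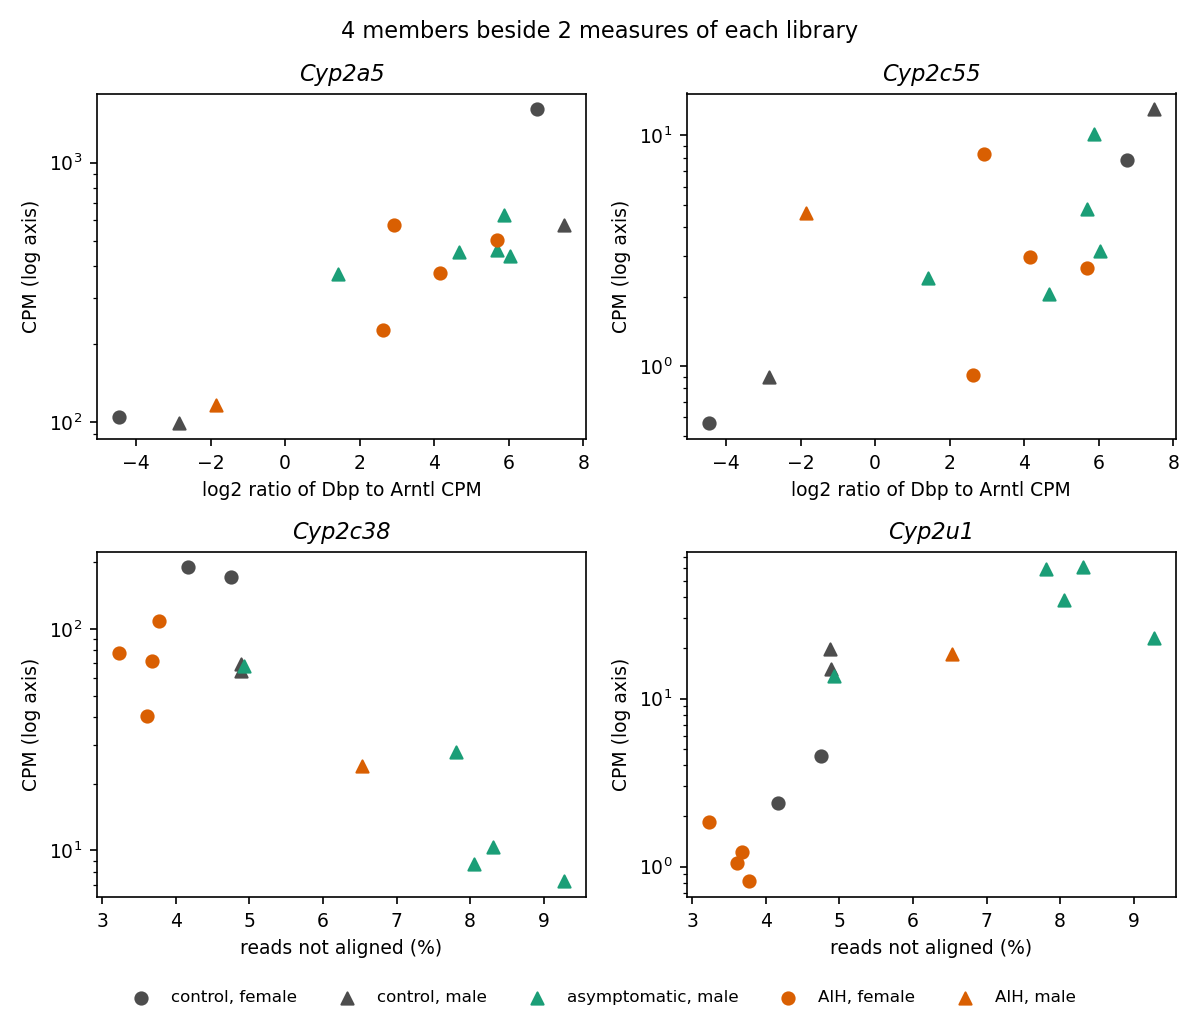
Level in each liver (CPM, log axis) of Cyp2a5 and Cyp2c55 against the log2 ratio of Dbp to Arntl, and of Cyp2c38 and Cyp2u1 against the percentage of reads not aligned, with colour for group, circles for females and triangles for males. These 4 members were chosen after their values were seen; the 3 livers with a ratio below 0 (controls 2 and 4 and AIH 4) hold the 3 lowest levels of Cyp2a5.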

How the data were processed

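RNA-seq counts of 14 mouse livers were analysed. The authors deposited raw counts per Ensembl gene for each library. The submitters' processing notes list HISAT2 2.1.0, cutadapt 1.12, HTSeq 0.9.0, FastQC 0.11.5, R 4.0 and edgeR, in no stated role, and builds GRCh38 and GRCm38. Strand setting, annotation release and read length are not given in the sources used here, so reads of overlapping or near-identical genes may have been lost or split. The 5 summary rows stayed out of library sizes: 3.23% to 9.27% of reads were not aligned, 28.8% to 37.0% not uniquely aligned, 1.38% to 3.05% ambiguous and 2.29% to 3.29% without a feature.

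Counts were scaled by TMM, which also scales the CPM given, and filtered with filterByExpr, leaving 14638 genes. Differences were tested two-sided by the quasi-likelihood method of edgeR 4.0.16 in R 4.3.3. A single model held all 14 libraries with a mean per group, and Benjamini-Hochberg adjustment ran over all genes. Models with a mean for each group and sex gave the comparisons within a sex, in which a mean resting on 1 liver takes its spread from the other groups. Standard errors come from the F statistic. The labels do not pair or number animals, and p-values measure the spread between these samples only. No 2 libraries agreed within sampling noise (lowest chi-square per gene 13.6). Unique 50-base fragments were counted over GENCODE transcripts.

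Alternatives were DESeq2 1.42.0, limma-voom 3.58.1 with quality weights, RLE factors, library totals, other count filters, a model of just the pair of groups, a sex term, each sex alone and each library left out. The models were tested on simulated data, and figures drawn with matplotlib 3.10.9. The members and gene lists were chosen with earlier results of these data known. The promoter pairs, the motifs and the members set beside the clock ratio or the unaligned share were chosen after values or sequences were seen. By rule, values in every liver went to members that passed (or the 4 with the smallest p) and to Cyp2e1, Cyp2a4, Cyp2a5, Cyp2b9, Cyp2b10, Cyp2c29, Cyp2d9 and Cyp2f2, and other lists are named by their 4 smallest p. Counting error is all that intervals and floors cover. The count of genes that passed in the list of growth hormone and sex-dependent regulators is not reported here.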

Additional observations from a re-analysis of the deposited data

Results flagged for a closer look

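In 20 members each group was searched for a library standing far from the rest, by a criterion that chance meets in about 1 group in 20. Of 60 groups 9 met it. AIH 4, the male of its group, accounted for 5: Cyp2d9 at 950.9 CPM beside 4.49 to 14.7 in the other AIH livers, Cyp2f2 at 1350 beside 184.5 to 493.3, Cyp2c67 at 199.0 beside 50.4 to 82.2, Cyp2d10 at 410.6 beside 242.1 to 265.7, and Cyp2u1 at 18.5 beside 0.816 to 1.85. Asymptomatic 2 was far above its group in Cyp2b9 (5.06 CPM, the next at 1.32) and Cyp2c69 (10.9 CPM, the next at 2.33), both at low levels. AIH 3 was lowest in Cyp2d26 at 408.4 CPM, the next at 579.6. Control 2 was lowest in Cyp2f2 at 438.0 CPM, the next at 750.1.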

How the results depend on the processing

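In AIH against control, 4 members passed, all lower, beside 890 lower of 14638 genes. With library totals only 2 passed (304 genes lower), with only the 2 groups compared 2 (632 lower) and with DESeq2 7 (1316 lower). With a library left out 1 to 9 passed, beside 520 to 1126 genes lower. All members that passed in these settings were lower. In asymptomatic against control 0 became 8 with limma-voom and 7 with DESeq2, 5 of the 8 and none of the 7 being higher. Over all genes 0 became 1299 and 109. In AIH against asymptomatic 12 (6 higher and 6 lower) became 2 with sex as a term. With limma-voom 14 passed, 3 higher and 11 lower, without Cyp2a4, Cyp2b9, Cyp2b13, Cyp2c40 and Cyp2c69. Over all genes 4355 passed in the main fit, 1372 with sex as a term and 5515 with limma-voom. In female against male controls 9 became 5 to 8 with a library left out, while the calls over all genes went from 68 to between 36 and 50. Cyp2e1 passed in 18 of 19 alternatives of AIH against control (not within males), Cyp2d26 in 16, Cyp2a22 in 15 and Cyp2c37 in 9. Library totals moved the median of all genes from -0.0134 to 0.136 and the higher share of all calls from 72.0% to 89.8% in AIH against control, and from 64.2% to 88.9% in AIH against asymptomatic.

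For single members, 326 values kept their direction and side of the threshold, 10 came to pass, 28 no longer passed and 32 turned sign; with a library left out these counts were 345, 7, 24 and 9. Those that turned sign follow, as log2 fold changes. In AIH against control, within males gave Cyp2a22 0.63, Cyp2a4 -1.16, Cyp2d9 0.15 and Cyp2f2 0.79. Cyp2a4 was -0.39 within females, -0.52 with sex as a term, and -0.32 (without AIH 3) to 1.79 (without control 3) with a library left out. Cyp2a5 was -1.10 to 0.46 (without control 3) with a library left out and 0.34 with limma-voom, and Cyp2b9 1.64 with limma-voom. In asymptomatic against control, within males gave Cyp2a22 0.023, Cyp2a4 0.32, Cyp2a5 0.48, Cyp2b13 0.58 and Cyp2b9 1.13. With sex as a term Cyp2a4 was 0.49, Cyp2a5 0.58, Cyp2b13 0.61 and Cyp2b9 0.89. Cyp2a5 was -0.68 to 0.86 (without control 3) with a library left out and 1.08 with limma-voom. Cyp2c29 was -0.027 with library totals and -0.092 (without asymptomatic 3) to 0.15 with a library left out. In AIH against asymptomatic, within males gave Cyp2a4 -1.48, Cyp2b10 -4.06, Cyp2b13 -3.75, Cyp2b9 -1.85, Cyp2c69 -0.58, Cyp2f2 0.16 and Cyp2g1 -0.12. With sex as a term Cyp2a4 was -1.002, Cyp2b10 -1.43, Cyp2b13 -3.26, Cyp2b9 -2.51, Cyp2c40 -0.61 and Cyp2c69 -0.999. The cause of these changes was not tested. No paired analysis was possible because replicate numbers follow accession order only.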
